A study of Mus musculus with 147 samples.

Results

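Primordial germ cells (PGCs) at E9.5, during their migration, were compared with PGCs at E8.5, shortly after their specification, by single-cell RNA-seq of sorted mouse embryo cells. All cells carried the BVSC reporter pair, *Prdm1*-mVenus with *Dppa3*-ECFP (also written *Blimp1* and *Stella*), passed from transgenic males to offspring of C57BL/6 females, and were otherwise wild type (WT). Whole embryos were dissociated and reporter-positive cells were sorted by FACS, so hindgut, mesentery and other tissues were not separated beforehand. The embryos' sex was not labelled at E8.5 or E9.5. A cell was kept when it had more than 2000 genes, 10000 to 1000000 unique molecular identifiers (UMIs, each standing for 1 counted mRNA molecule) and less than 500 CPM (UMIs scaled to a cell total of 1000000) of *Apoa1*, an apolipoprotein gene of the visceral endoderm. Of 384 cells sequenced at the 2 time-points, 381 passed the depth limits, and 295 passed the whole rule, 105 at E8.5 and 190 at E9.5. The entire series held 13032 cells. E10.5 BVSC WT cells (287 kept, in 3 replicates) entered the same model to help estimate the spread. E10.5 replicate 3 was labelled male, and the other E10.5 replicates carried no sex label.

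PGCs arise in the posterior proximal epiblast in response to BMP signals, enter the hindgut endoderm, and then travel through the dorsal mesentery toward the genital ridges. During this journey they hold a pluripotency-like network and a germ cell programme together, while genome-wide DNA methylation falls and promoters that methylation keeps silent become open to use. The X-linked *Rhox* homeobox cluster and genes such as *Tex19.1* are known as genes of that kind.

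The replicates were uneven. None of the 48 cells of E8.5 replicate 1 passed the rule, because their *Apoa1* level ran from 806 to 8488 CPM. E8.5 replicate 2 gave 89 cells, in which *Apoa1* was at most 130 CPM, and the nearest excluded cell of that replicate stood at 1725 CPM. E8.5 replicate 3 gave 16 of 48 cells, all between 330 and 497 CPM, and its nearest excluded cell was at 525 CPM. E9.5 replicates 1 and 2 gave 96 and 94 cells, none above 227 CPM. The comparison was therefore between 2 E8.5 replicates and 2 E9.5 replicates, each 1 sequencing library. Its p-values rest on a spread between replicates that was estimated over these and the E10.5 replicates together, with information shared between genes. The summed UMIs per replicate were 34379375 and 8288325 at E8.5, and 32664530 and 28431692 at E9.5. The median UMIs per cell were 403510 and 514444 at E8.5 and 351934 and 305878 at E9.5.

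Markers bore out the germ cell label for the kept cells, with one reservation. The summed level of 8 germ cell markers (*Dppa3*, *Pou5f1*, *Nanos3*, *Tfap2c*, *Prdm14*, *Prdm1*, *Dnd1* and *Kit*) was 2075 and 1692 CPM at E8.5 and 2236 and 2330 CPM at E9.5, and it was 66.6 CPM in the excluded cells of E8.5 replicate 1. The summed level of 14 visceral endoderm markers was 193 CPM in E8.5 replicate 2 and 2702 CPM in E8.5 replicate 3, against 38.4 and 28.6 CPM at E9.5 and 10007 CPM in the excluded cells. E8.5 replicate 3 therefore carried visceral endoderm RNA beside its germ cell RNA. The 14 markers include *Apoa1*, which the rule limits, at 44.8 and 432 CPM at E8.5 and 1711 CPM in the excluded cells. *Ttr* and *Rbp4*, which the rule did not use, were at 39.4 and 32.5 CPM in E8.5 replicate 2. They were at 376 and 384 CPM in E8.5 replicate 3, while *Foxa2*, a transcription factor of the endoderm, was at 1.93 CPM there. Hindgut and definitive endoderm markers summed to 284 and 919 CPM at E8.5 and to 114 and 83.5 CPM at E9.5. Mesoderm and mesenchyme markers summed to 47.8 and 215 CPM at E8.5 and to 85.4 and 18.5 CPM at E9.5. The 11 blood markers summed to 132 and 13.2 CPM at E8.5 and to 29.8 and 49.1 CPM at E9.5, most of it haemoglobin RNA, with *Hba-a1* at 26.3 CPM in E8.5 replicate 2, while their regulator *Gata1* was at 0 in all 4 replicates. The 7 endothelium markers summed to 135 and 155 CPM at E8.5 and to 84.4 and 89.5 CPM at E9.5, nearly all of it *Egfl7* (132, 144, 77 and 87.2 CPM), and *Cdh5*, the endothelial cadherin, was at 2.88 CPM or below.

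**Figure D1:**
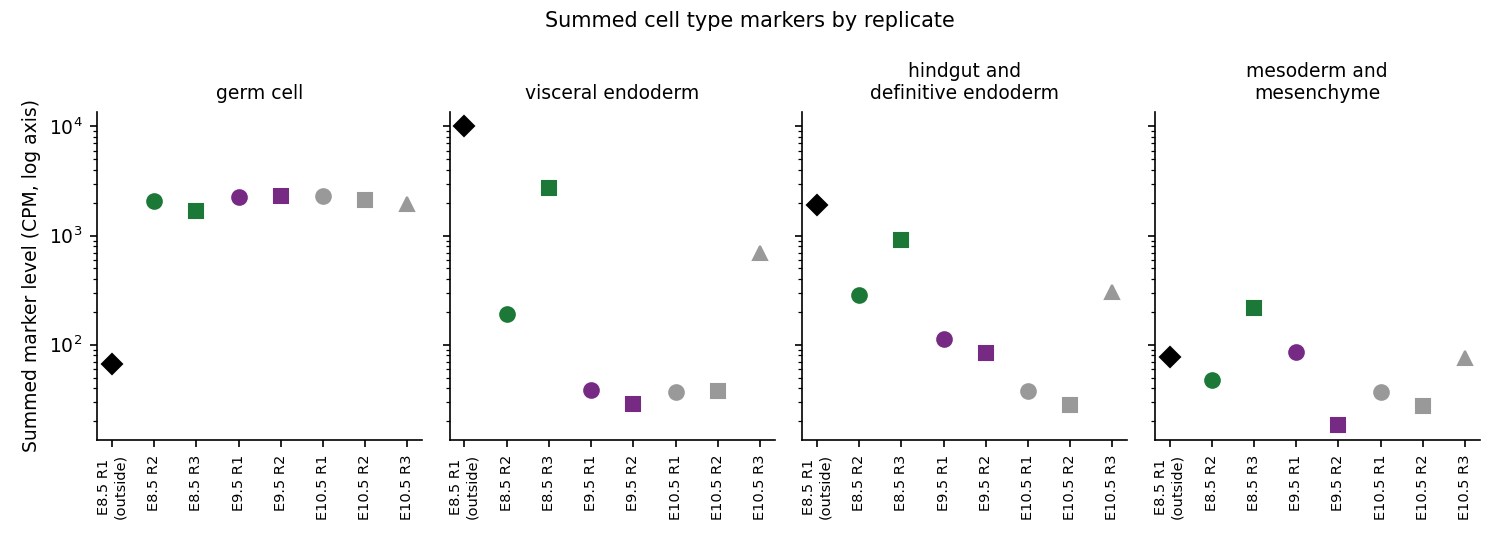
Summed level (CPM, log axis) of marker lists of 4 tissues, 1 point per replicate, with the excluded cells of E8.5 replicate 1 as a black diamond. Germ cell markers were level over the kept replicates (1692 to 2330 CPM at E8.5 and E9.5), whereas visceral endoderm markers stood at 2702 CPM in E8.5 replicate 3 and at 38.4 CPM or below at E9.5. The visceral endoderm list includes *Apoa1*, which the rule limits.

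The sex readout was mixed at both time-points. A summed level of at least 50 CPM over 4 Y-linked genes (*Ddx3y*, *Eif2s3y*, *Uty* and *Kdm5d*) was found in 36 of 89 and 11 of 16 cells at E8.5 and in 56 of 96 and 52 of 94 cells at E9.5. None of the 5 sex-linked genes tested passed the threshold, and none had an unadjusted p below 0.05 (edgeR) or a DESeq2 call. This could not decide whether the sex mix differed, because the E10.5 replicates entered the estimate of the spread. *Eif2s3y* was at 2.91, 1.33 and 118 CPM in them, and its log2 fold change of 0.03 had an SE of 2.18. At E10.5, 3 of 92, 0 of 94 and 75 of 101 cells reached this level.

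UMIs were summed over the cells of each replicate and 16338 genes were tested with edgeR's quasi-likelihood test. At an adjusted p below 0.05, 82 genes (0.502% of those tested) were higher and 19 (0.116%) were lower at E9.5. The median log2 fold change over all genes tested was 0.01. All 101 called genes had replicates that did not overlap between the time-points, a property that 18% (higher) and 25.5% (lower) of the tested genes shared. The absolute log2 fold change of the calls had a median of 2.22 among the rises and 2.09 among the falls. Without E8.5 replicate 3 there were 97 rises and 7 falls, of which 58 and 6 were among those just given, and the lone E8.5 replicate was then assumed to vary like the other groups. In the fit of E8.5 and E9.5 alone 19 genes were higher and 13 lower. DESeq2, the other tool for counts, called 296 higher (1.81%) and 202 lower (1.24%) in the same 7 replicates.

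**Figure D2:**
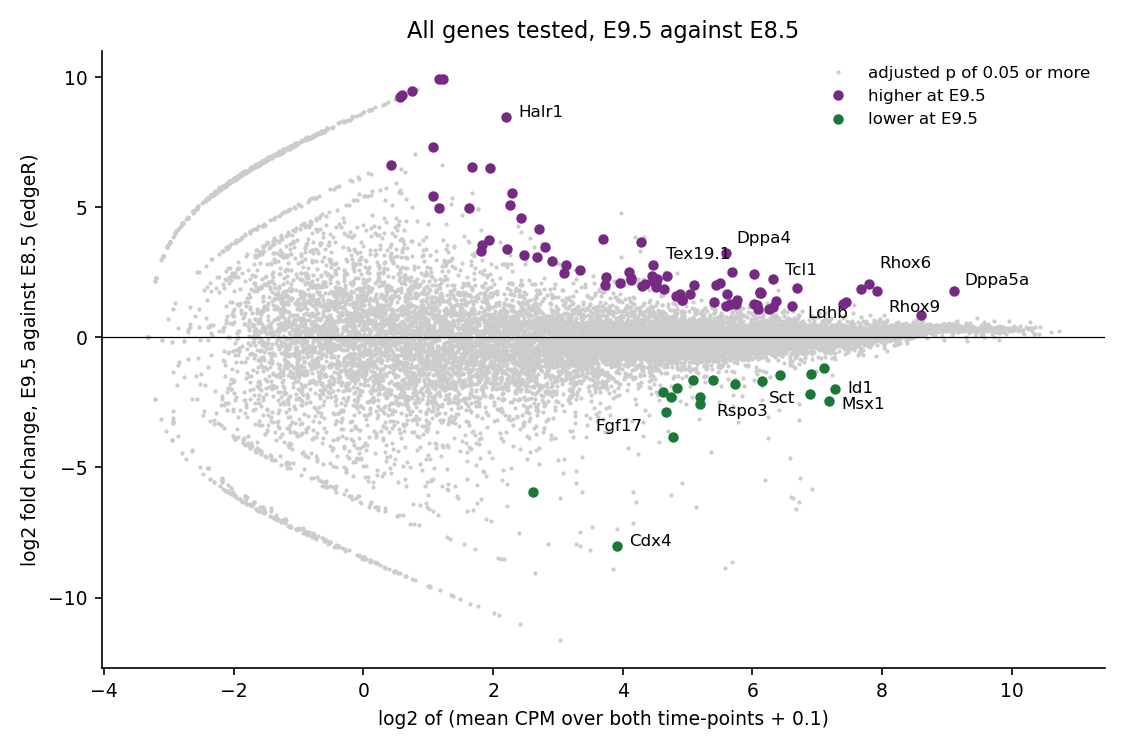
Each point is 1 of 16338 genes tested: the horizontal axis is the log2 of its mean CPM over both time-points plus 0.1, and the vertical axis is the log2 fold change of E9.5 against E8.5. The 82 genes higher at E9.5 (purple) reach the most abundant genes, such as *Dppa5a*, and the 19 lower (green) include *Msx1* and *Id1*. The outermost curved bands of points are genes with 0 UMIs at 1 time-point.

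Promoter sequences were read from RefSeq (GRCm38.p6) for the window of 250 bases before to 50 bases after each gene's start. Of the called genes, 63 of 82 rises and 14 of 19 falls had an entry of 300 bases. The count of CG, the dinucleotide that DNA methyltransferases act on, had a median of 9 per promoter among the rises, 21.5 among the falls and 19 over 12111 tested genes. CG occurred at least once in 98.4%, 100% and 99.1% of these promoters, and in 94.2% of 27025 promoters in the table. The sequence CACGTG, a palindrome that holds 1 CG, was in 6 of 63 (9.52%), 2 of 14 (14.3%) and 9.83% of them, and 5 of those 6 were *Rhox4* copies. Counts were not tested, and the *Rhox* copies are not independent of each other. The promoters printed here are examples, with each CG in capitals. They do not span the range, which was 0 to 49 CG among the rises and 8 to 36 among the falls. Both printed falls lie above the median of the falls. First come 4 genes that rose: *Tex19.1* (chr11:121145893-121146192, plus strand, 16 CG), *Tcl1* (chr12:105222688-105222987, minus strand, 11 CG), and one copy each of the *Rhox2* and *Rhox4* families, *Rhox2g* (chrX:37643421-37643720, minus strand, 5 CG) and *Rhox4g* (chrX:37651278-37651577, minus strand, 10 CG). Then come 2 that fell, *Msx1* (chr5:37824536-37824835, minus strand, 29 CG) and *Sct* (chr7:141279084-141279383, minus strand, 24 CG).
Tex19.1: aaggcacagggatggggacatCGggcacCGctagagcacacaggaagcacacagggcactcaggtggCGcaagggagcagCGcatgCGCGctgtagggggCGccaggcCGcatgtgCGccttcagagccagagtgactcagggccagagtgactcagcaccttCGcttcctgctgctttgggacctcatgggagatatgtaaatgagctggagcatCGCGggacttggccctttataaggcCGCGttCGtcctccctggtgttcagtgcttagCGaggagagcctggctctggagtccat
Tcl1: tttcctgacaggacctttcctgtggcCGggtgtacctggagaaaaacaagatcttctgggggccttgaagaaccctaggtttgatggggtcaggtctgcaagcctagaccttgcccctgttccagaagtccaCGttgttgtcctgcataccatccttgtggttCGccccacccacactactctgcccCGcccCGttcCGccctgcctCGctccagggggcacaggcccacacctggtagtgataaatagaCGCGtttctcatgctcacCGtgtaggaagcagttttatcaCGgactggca
Rhox2g: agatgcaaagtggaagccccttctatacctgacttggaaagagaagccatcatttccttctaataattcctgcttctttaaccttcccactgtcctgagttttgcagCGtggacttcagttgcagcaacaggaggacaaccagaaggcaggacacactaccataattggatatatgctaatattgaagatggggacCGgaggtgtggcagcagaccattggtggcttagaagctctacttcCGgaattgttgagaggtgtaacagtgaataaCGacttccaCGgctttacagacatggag
Rhox4g: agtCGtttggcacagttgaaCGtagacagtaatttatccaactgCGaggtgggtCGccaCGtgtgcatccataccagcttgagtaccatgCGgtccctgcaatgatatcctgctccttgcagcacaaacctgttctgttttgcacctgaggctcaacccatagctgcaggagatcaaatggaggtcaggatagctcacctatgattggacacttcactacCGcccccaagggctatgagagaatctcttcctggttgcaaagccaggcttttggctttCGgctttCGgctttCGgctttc
Msx1: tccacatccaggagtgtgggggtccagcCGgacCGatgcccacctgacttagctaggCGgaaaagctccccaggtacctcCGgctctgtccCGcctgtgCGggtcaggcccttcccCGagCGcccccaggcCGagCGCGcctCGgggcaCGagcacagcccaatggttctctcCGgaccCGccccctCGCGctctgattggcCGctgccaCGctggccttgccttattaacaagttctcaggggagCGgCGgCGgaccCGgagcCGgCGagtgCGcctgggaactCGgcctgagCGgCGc
Sct: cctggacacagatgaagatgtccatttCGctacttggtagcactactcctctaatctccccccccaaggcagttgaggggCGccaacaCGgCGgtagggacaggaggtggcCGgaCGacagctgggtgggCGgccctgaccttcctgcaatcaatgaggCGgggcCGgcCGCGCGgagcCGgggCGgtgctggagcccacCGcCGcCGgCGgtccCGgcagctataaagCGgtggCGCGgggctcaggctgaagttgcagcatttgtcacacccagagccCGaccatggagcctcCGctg

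Genes of the naive pluripotency network were among the rises. *Dppa4*, which encodes a chromatin protein of pluripotent cells, stood at 8.78 and 11.2 CPM in the E8.5 replicates and at 100 and 71.6 CPM at E9.5. Both E9.5 values were far above both E8.5 values, a log2 fold change of 3.24 ± 0.25 (SE, n = 2 replicates at each time-point, edgeR adjusted p = 8.97e-05). The gene lies on chromosome 16 (mm10, 48283733 to 48294237). The change was broad over cells: the median cell held 1.69 and 1.64 CPM in the E8.5 replicates and 38.6 and 21.9 CPM in the E9.5 replicates, while the upper quartile at E9.5 was 123 and 81.5 CPM. After each cell was thinned to 50000 UMIs, *Dppa4* was detected in 14% and 12.5% of E8.5 cells and in 74.2% and 68.5% of E9.5 cells. The excluded endoderm cells gave 17%, so the E8.5 share was no higher than in cells of another type. The summed level differed in the other direction, at 2.79 CPM in the excluded cells, and single E8.5 cells reached 169 and 108 CPM. Unthinned, the shares were 55.1% and 62.5% at E8.5 and 95.8% and 89.4% at E9.5, against 68.8% in the excluded cells.

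*Dppa5a*, which encodes an RNA-binding protein of pluripotent cells and lies on chromosome 9 (78367052 to 78368177), rose from 274 and 262 CPM to 828 and 852 CPM. This was 3.42-fold, a log2 fold change of 1.78 ± 0.15 (SE, edgeR adjusted p = 0.00011), and it was already detected in every E8.5 cell. *Tcl1*, a coactivator of AKT kinase, rose from 37.7 and 21.2 CPM to 134 and 124 CPM (log2 fold change 2.23 ± 0.26 SE). *Zfp42* (Rex1), a zinc finger gene used as a mark of naive pluripotency, rose from 49.8 and 29.4 CPM to 84.7 and 95.8 CPM (2.46-fold). *Tfcp2l1*, a transcription factor of the same state, was at 27.2 and 34.7 CPM and then at 71.5 and 58.4 CPM, and its adjusted p of 0.0499 (edgeR) lay at the threshold. Its level in the excluded endoderm cells was 123 CPM. *Fbxo15*, an F-box gene and target of Oct4, was not on the fixed pluripotency list. It rose from 14.5 and 23 CPM to 70.5 and 73.4 CPM (2.09 ± 0.25 SE).

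Of the pluripotency list, 26 of 27 genes were tested, and 5 rose and none fell, against 0.502% and 0.116% of all genes tested. The list's median log2 fold change was 0.42, against 0.01 over all genes. DESeq2 called 9 higher and 1 lower, and without E8.5 replicate 3 edgeR called 4 higher and none lower. Without E8.5 replicate 2 it called 10 higher and 1 lower, and without E9.5 replicate 1 or 2, or E10.5 replicate 1 or 2, it called 3 higher. The core factors did not pass. *Pou5f1* was at 270 and 281 CPM and then at 317 and 358 CPM (edgeR adjusted p = 0.309). *Nanog* was at 145 and 119 CPM and then at 210 and 214 CPM, a log2 fold change of 0.81 ± 0.19 (SE, edgeR adjusted p = 0.0933). *Sox2*, *Klf2*, *Klf5*, *L1td1*, *Etv5* and *Trim28* had adjusted p-values of 0.42 or above. *Esrrb* was at 71.6 and 51.8 CPM and then at 137 and 100 CPM, and *Utf1* at 373 and 236 CPM and then at 427 and 493 CPM. Neither passed. *Dppa2*, the partner of *Dppa4* in one complex, was at 17 and 0.121 CPM at E8.5 and 46.4 and 50 CPM at E9.5, and the gap between its E8.5 replicates left an adjusted p of 0.552 (edgeR).

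**Figure D3:**
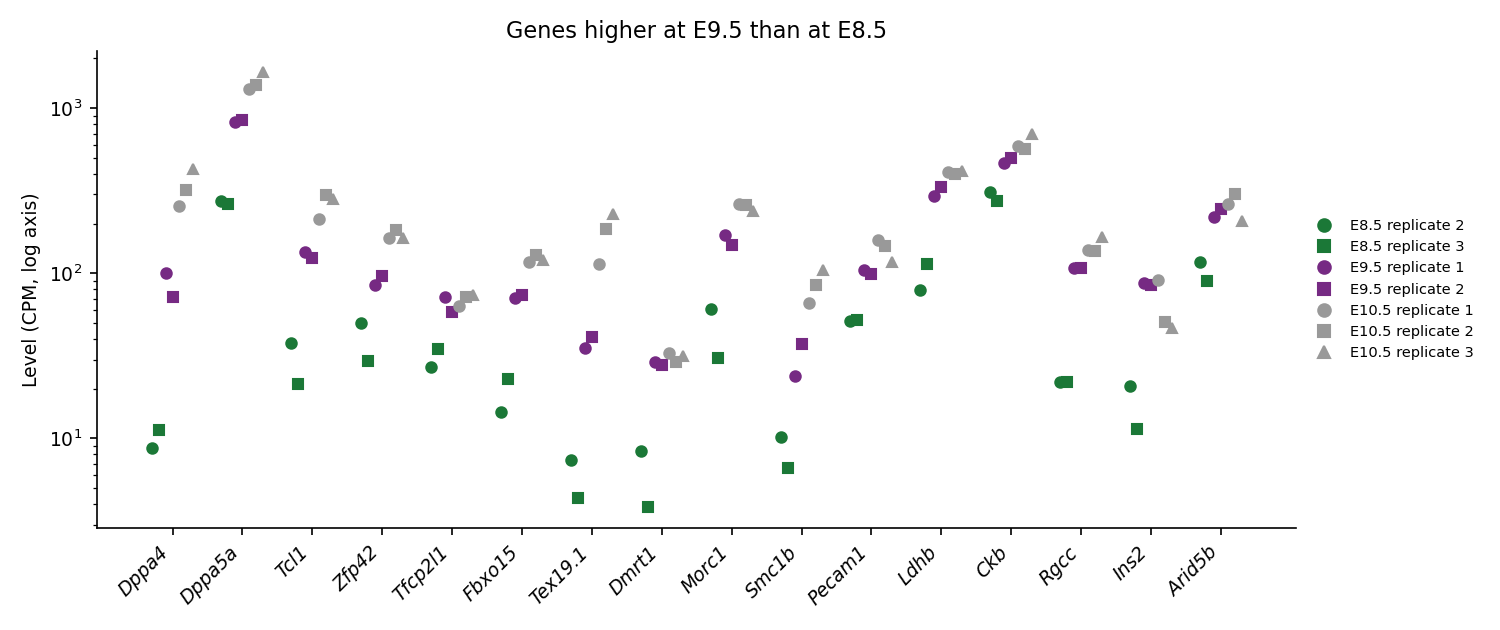
Level (CPM, log axis) of 16 genes called higher at E9.5, with 1 point per replicate (green E8.5, purple E9.5, grey E10.5). In every gene both E9.5 points lie above both E8.5 points. For *Dppa4* the E10.5 points lie higher again, at 256 to 426 CPM.

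Genes that identify PGCs did not pass the test. None of 14 genes of the PGC identity list passed, 3 had an unadjusted edgeR p below 0.05 (11.8% of all genes did) and DESeq2 called 1, and the list's median log2 fold change was 0.20. *Dppa3*, whose protein guards against active demethylation and whose promoter drives 1 reporter, was at 676 and 430 CPM and then at 821 and 901 CPM (log2 fold change 0.76 ± 0.20 SE, edgeR adjusted p = 0.151). *Prdm1*, which encodes a repressor and which the other reporter follows, was at 147 and 102 CPM and then at 151 and 109 CPM. Cells were sorted on both reporters, so these levels are not independent of the sort. *Tfap2c* (313, 260, 326 and 320 CPM in the order E8.5 then E9.5), *Dnd1* (272, 247, 253 and 303 CPM) and *Nanos3* (128, 147, 91 and 102 CPM), which protect germ cell fate and survival, had adjusted p-values of 0.516 to 0.711. *Prdm14* was at 80.7 and 38.8 CPM and then at 94.4 and 81.4 CPM. *Alpl*, *Ifitm1*, *Ifitm3*, *Lin28a*, *Sall4* and *Elf3* were each at 115 CPM or above in all 4 replicates, with adjusted p-values of 0.382 to 0.932.

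The X-linked *Rhox* cluster of homeobox genes held 16 of the 82 rises. Of 34 *Rhox* genes in the table, 25 passed the low-count filter. Of these, 16 were called higher and none lower, against 0.502% and 0.116% of all genes tested. The 9 that did not pass the filter had at most 6 UMIs in any replicate of the 3 time-points. A gene that is low at E8.5 could pass the filter through a later time-point alone, so the 25 are not all members. *Rhox6*, a placental and germ cell homeobox gene on chromosome X (37826910 to 37829857), was at 112 and 73.4 CPM at E8.5 and at 344 and 357 CPM at E9.5. That was 4.10-fold, a log2 fold change of 2.04 ± 0.20 (SE, edgeR adjusted p = 0.000306). *Rhox9* on chromosome X (37899097 to 37901770) was at 131 and 105 CPM and then at 358 and 380 CPM, a log2 fold change of 1.77 ± 0.17 (SE, edgeR adjusted p = 0.000206). In both genes the E8.5 and E9.5 replicates were far apart and those within a time-point were close.

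The *Rhox2* genes were nearly absent at E8.5, and 5 of 8 were called higher. *Rhox2g* had 10 and 0 UMIs at E8.5 and 284 and 292 UMIs at E9.5, and *Rhox2d* had 14 and 0 UMIs and then 280 in each. Their levels at E9.5 were still low, at 8.69 and 10.3 CPM for *Rhox2g*. The *Rhox4* genes were at 0.724 to 17.4 CPM at E8.5 and at 9.95 to 48.4 CPM at E9.5 in the 7 that passed. *Rhox4a* and *Rhox4a2* had 594 and 597 UMIs in E8.5 replicate 2 and 1218 and 1217 in E9.5 replicate 1, so these copies cannot be told apart. Members of the *Rhox2*, *Rhox4* and *Rhox7* families are near-identical, and how the counting split their reads is uncertain, so the number of calls counts fewer independent genes. *Rhox5*, known also from trophoblast and endoderm, was at 58.8 and 182 CPM and then at 288 and 225 CPM and did not pass (edgeR adjusted p = 0.424). Its level in the excluded endoderm cells was 625 CPM.

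Over all 34 genes the *Rhox* sum was 399 and 426 CPM at E8.5, 1366 and 1400 CPM at E9.5 and 2625 to 3246 CPM at E10.5. The E10.5 values were of the same order in the replicates almost without Y-linked RNA (2625 and 2722 CPM) and in the one labelled male (3246 CPM). The median log2 fold change of the 25 *Rhox* genes was 2.36 in the main fit. With the sums limited to cells of at least 50 CPM of Y-linked RNA it was 2.59. E10.5 then entered as replicate 3 alone, because replicates 1 and 2 had 3 and 0 such cells. Sex as a cause was not tested. The median was 2.24 without E8.5 replicate 3 and 2.28 without E9.5 replicate 2. In the fit of E8.5 and E9.5 alone, 2 of 24 *Rhox* genes were called higher, against 16 of 25 in the main fit. Apart from *Rhox*, 4 of 576 tested genes on chromosome X were higher and 1 lower, a share of 0.694% higher against 0.393% of 15516 autosomal genes, and the median log2 fold change was -0.02 against 0.01.

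**Figure D4:**
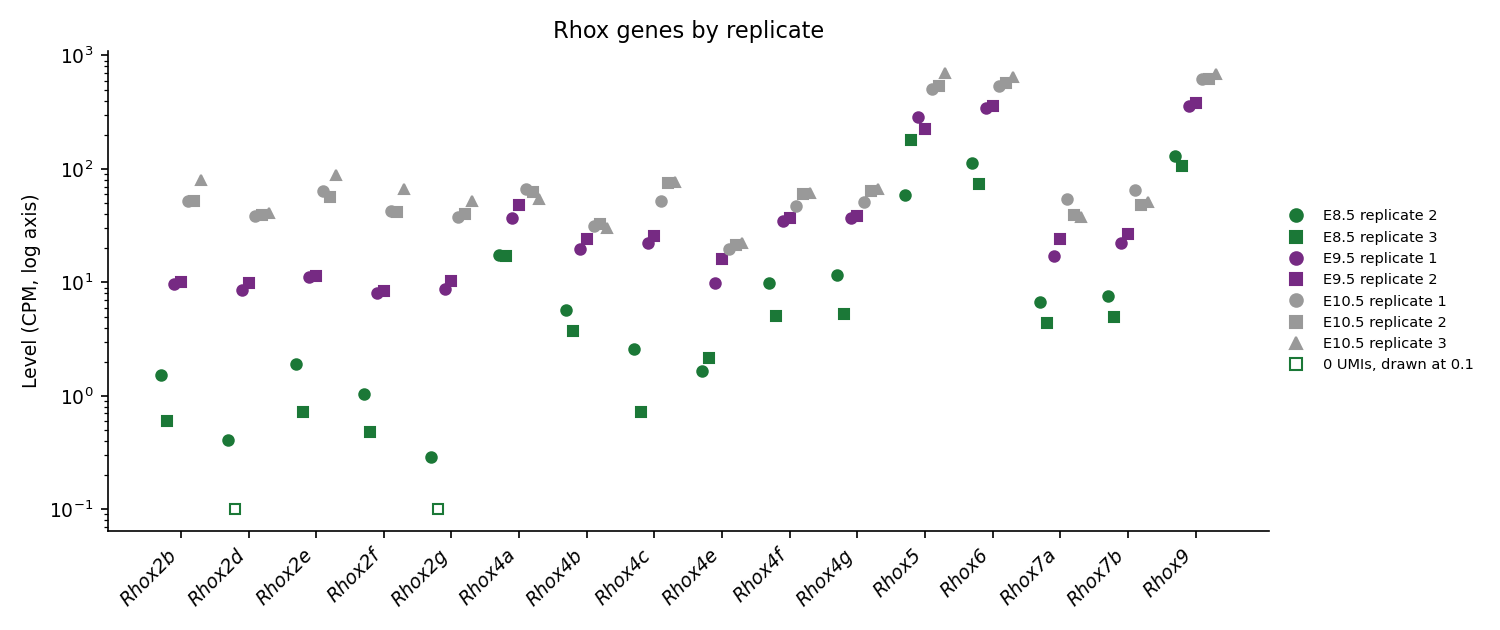
Level (CPM, log axis) of 16 *Rhox* genes, 1 point per replicate (green E8.5, purple E9.5, grey E10.5). Open squares are 0 UMIs, drawn at 0.1. Green and purple points are apart in all 16 genes, though *Rhox5* (182 CPM against 225 CPM at the nearest) did not pass the test, and the grey points are the highest.

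Some genes of later germ cell life outside the *Rhox* cluster also rose. Of 32 genes tested on the list of later germ cell genes, 4 were higher and none lower, against 0.502% and 0.116% of all genes tested. The 4 were *Tex19.1* and *Dmrt1*, and also *Rhox6* and *Rhox9*, which were already counted above. DESeq2 called 9 of the list higher, and its median log2 fold change was 1.35. Without E8.5 replicate 3, 7 of 34 were called, and without any other 1 replicate 3 to 7 were. *Tex19.1*, which restrains retrotransposons in germ cells, was at 7.42 and 4.34 CPM at E8.5 and at 35.5 and 40.9 CPM at E9.5, a log2 fold change of 2.77 ± 0.36 (SE, edgeR adjusted p = 0.00309). The excluded endoderm cells held 48.8 CPM of it. *Dmrt1*, a transcription factor of the gonad and germ line, was at 8.44 and 3.86 CPM and then at 29.1 and 27.8 CPM. Outside the list, *Morc1*, needed for silencing of transposons in male germ cells, rose from 60.8 and 30.8 CPM to 171 and 149 CPM, and *Smc1b*, the meiotic cohesin subunit, rose from 10.2 and 6.64 CPM to 23.9 and 37.3 CPM. *Sohlh2*, a transcription factor of early gametogenesis, had 0.844 and 0.121 CPM and then 9.98 and 2.88 CPM. *Morc1* was named by the rule for the largest rises, whereas *Smc1b* and *Sohlh2* were picked from the calls after their values were seen.

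Some called transcripts had no UMI at E8.5. *4930591A17Rik* had 0 UMIs in both E8.5 replicates and 285 over the E9.5 replicates, at least 66.3-fold higher against a floor of 3 UMIs over the E8.5 group. The E9.5 replicates were uneven, with 227 and 58 UMIs, and the bound was 29-fold without E9.5 replicate 1, 98.8-fold without E9.5 replicate 2, 12.9-fold without E8.5 replicate 2 and 53.5-fold without E8.5 replicate 3. *D630023F18Rik*, with 69 and 184 UMIs at E9.5, was at least 58.9-fold higher by the same measure, a bound that became 92-fold, 30-fold, 11.4-fold and 47.5-fold with the same replicates left out in that order. *Halr1*, a long noncoding RNA next to the *Hoxa* cluster, had 1 UMI at E8.5 and 532 at E9.5. These were chosen after their values were seen, and their floor covers counting error only.

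Metabolic and signalling genes were among the rises. *Ldhb*, the lactate dehydrogenase subunit of oxidative tissues, was at 78.8 and 114 CPM at E8.5 and at 295 and 333 CPM at E9.5 (log2 fold change 1.85 ± 0.18 SE, edgeR adjusted p = 0.000217). It was the only one of 18 glycolysis genes tested that passed. *Ckb*, the brain-type creatine kinase, was at 308 and 272 CPM and then at 466 and 496 CPM. *Rgcc*, a regulator of the cell cycle, rose from 22.1 and 21.8 CPM to 108 and 107 CPM, a log2 fold change of 2.42 ± 0.22 (SE, edgeR adjusted p = 0.000166). *Ins2*, an insulin gene, was at 20.7 and 11.5 CPM and then at 87.9 and 84.7 CPM. *BC048679* was at 12.9 and 25 CPM and then at 67.9 and 67.6 CPM. *Gm9780*, *Plac9a* and *Plac9b* had almost equal counts in each replicate (for *Plac9b*, 27.1 and 43.1 CPM and then 98.7 and 110 CPM) and cannot be told apart. None of 82 oxidative phosphorylation and 84 ribosomal protein genes tested passed. Their log2 fold changes were above 0 in 73 (89%) and 82 (97.6%), against 50.8% of all tested genes, with medians of 0.35 and 0.34. The unadjusted edgeR p was below 0.05 in 48 (58.5%) and 26 (31%), against 11.8% of all tested genes, and DESeq2 called 4 and 1. The outcome turned on single replicates. Without E8.5 replicate 2, 21 of 83 and 47 of 84 were called higher and 1 and 0 lower, with medians of 0.48 and 0.58 against 0.15 over all genes. Without E8.5 replicate 3, 0 and 1 were called higher and the medians were 0.22 and 0.13.

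Genes for homing and adhesion gave 1 call. Of 25 tested, only *Pecam1*, an adhesion molecule on PGCs, endothelium and pluripotent cells, passed in either direction, at 51.5 and 52.4 CPM at E8.5 and 104 and 98.7 CPM at E9.5 (log2 fold change 1.09 ± 0.21 SE, edgeR adjusted p = 0.036). Its call was lost without E8.5 replicate 3, E9.5 replicate 1, E9.5 replicate 2 or E10.5 replicate 2. It was called in 11 of the 24 alternatives. The summed endothelium markers given above were lower at E9.5 than at E8.5. *Egfl7* carried most of that sum, *Kdr* was at 6.03 CPM or below, and *Cdh5*, *Tek*, *Emcn* and *Flt1* were each at 2.90 CPM or below in all 4 replicates. Their part in the *Pecam1* difference was not tested. *Kit*, the receptor for the Steel factor that guides and sustains migrating PGCs, was at 188 and 185 CPM and then at 183 and 156 CPM (edgeR adjusted p = 0.995). *Itgb1*, *Cdh1*, *Epcam*, *Cd9*, *Pdpn*, *Fn1*, *Cdc42*, *Rac1* and *Rhoa* had adjusted p-values of 0.455 to 0.993. *Podxl* was at 2.30 and 70.5 CPM at E8.5 and 345 CPM in the excluded endoderm cells, and at 0.633 CPM or below at E9.5, and it did not pass.

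No DNA methylation gene passed: of 12 tested, 2 had an unadjusted edgeR p below 0.05, both lower, and DESeq2 called none. *Dnmt1*, the maintenance methyltransferase, was at 185 and 184 CPM and then at 242 and 187 CPM. *Uhrf1*, its recruiting partner, was at 22 and 62.4 CPM and then at 25.1 and 9.39 CPM, with 172 CPM in the excluded endoderm cells. *Tet1*, a 5-methylcytosine oxidase, was at 223 and 170 CPM and then at 221 and 226 CPM. Likewise none of 22 histone methylation genes, 26 cyclins and inhibitors, 24 imprinted genes, 18 apoptosis genes, 14 immediate early and heat shock genes, 43 G1/S genes or 53 G2/M genes was called by edgeR. Their counts with an unadjusted edgeR p below 0.05 were 2, 4, 2, 5, 1, 8 and 7, against 11.8% of all tested genes. Of these, 1, 1, 0, 3, 1, 5 and 7 were higher. DESeq2 called 0, 1, 1, 0, 0, 1 and 0, against 1.81% (higher) and 1.24% (lower) of all tested genes.

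Genes of posterior mesoderm and of FGF and Wnt signalling were among the falls. Of 25 genes on the Wnt and posterior mesoderm list, 3 were lower (*Cdx4*, *Rspo3* and *Fgf17*) and none higher, with a median log2 fold change of -1.61. Of all genes tested, 0.116% were lower. Without E8.5 replicate 3, 2 of 25 were lower and the median was -0.94. The number lower was 5 without E8.5 replicate 2, 0 without E9.5 replicate 1 and 1 without E9.5 replicate 2, with medians of -1.48 to -1.49. *Fgf17*, an FGF ligand of the primitive streak and tail bud, was at 39.1 and 51.4 CPM at E8.5 and at 3.86 and 7.25 CPM at E9.5. That was 7.34-fold lower, a log2 fold change of -2.88 ± 0.45 (SE, edgeR adjusted p = 0.00918), and the excluded endoderm cells held 1.22 CPM. *Rspo3*, a secreted Wnt enhancer, fell from 55.3 and 70.3 CPM to 6.52 and 12.8 CPM, with 2.27 CPM in the excluded cells. *Cdx4*, a posterior homeobox gene, was at 6.72 and 52.7 CPM at E8.5 and at 0.122 and 0.0703 CPM at E9.5. Few cells carried it: at 50000 UMIs per cell it was detected in 2.33% and 25% of E8.5 cells. The median E8.5 cell held 0 and 5.01 CPM, and the highest held 349 and 390 CPM. The E8.5 replicates of *Cdx4* differed from each other far more than those of *Fgf17* or *Rspo3*. *T* (Brachyury), the mesoderm factor downstream of BMP and Wnt in nascent PGCs, was at 11.2 and 29.1 CPM and then at 0.153 and 0.422 CPM, and it did not pass (edgeR adjusted p = 0.255). At 50000 UMIs per cell *T* was detected in 14% and 31.2% of E8.5 cells.

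BMP targets were also among the falls. The BMP list had a median log2 fold change of -0.32, and of -0.26 without E8.5 replicate 3. Of its 19 genes tested, *Id1* and *Msx1* were lower and none was higher, while 0.116% of all genes tested were lower. Without E9.5 replicate 2, 1 was lower. *Id1*, an inhibitor of basic helix-loop-helix factors, was at 262 and 239 CPM at E8.5 and at 56.5 and 59 CPM at E9.5, a log2 fold change of -1.99 ± 0.23 (SE, edgeR adjusted p = 0.0011). *Msx1*, a homeobox gene, was at 213 and 282 CPM and then at 52 and 31.3 CPM, a log2 fold change of -2.44 ± 0.37 (SE, edgeR adjusted p = 0.0109). Both were lowered across most cells rather than lost from all: the median cell held 225 and 306 CPM of *Msx1* at E8.5 and 14.7 and 3.72 CPM at E9.5, but the highest E9.5 cells still held 496 and 304 CPM. For *Id1* the median cell held 241 and 214 CPM and then 16.9 and 21.4 CPM. At 50000 UMIs per cell *Msx1* was detected in 93% and 100% of E8.5 cells and in 60.2% and 42.4% of E9.5 cells. The excluded endoderm cells expressed both genes, at 292 CPM of *Id1* and 169 CPM of *Msx1*.

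The remaining falls had varied functions. *Sct*, which encodes the hormone secretin, fell from 206 and 189 CPM to 41.5 and 38.2 CPM (log2 fold change -2.18 ± 0.26 SE). *Hes7*, the oscillating repressor of the segmentation clock, was at 6.60 and 17.1 CPM and then at 0.0918 and 0.246 CPM. At 50000 UMIs per cell *Hes7* was detected in only 5.81% and 31.2% of E8.5 cells. *Rarg*, a retinoic acid receptor, was at 45.3 and 77.9 CPM and then at 15.2 and 8.02 CPM, with 0.131 CPM in the excluded endoderm cells. *Tead2*, a Hippo pathway factor, *Igsf9*, an adhesion protein, *Slc16a3*, a lactate exporter, and *Spry4*, a feedback inhibitor of FGF signalling, also fell, by log2 fold changes of -1.78, -1.63, -1.42 and -1.63. *Elovl1*, *Mllt3*, *Fkbp11*, *Zfp410*, *Cd81*, *Rgs19* and *Ripk3* completed the 19.

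Some falls were of genes that the visceral endoderm cells also expressed. Of the 19, 8 had a higher level in the excluded cells of E8.5 replicate 1 than in E8.5 replicate 2 (42.1%, against 40.6% of all tested genes), and 3 had more than 2 times that level (15.8% against 22.4%). *Elovl1*, a fatty acid elongase, was at 19 CPM in E8.5 replicate 2, 84 CPM in replicate 3 and 313 CPM in the excluded cells, against 2.57 and 3.90 CPM at E9.5. *Mllt3* and *Fkbp11* stood at 127 and 288 CPM in the excluded cells. The visceral endoderm markers themselves, a list that includes *Apoa1*, had a median log2 fold change of -5.81 over 13 tested genes. None passed (2 had an unadjusted edgeR p below 0.05, and DESeq2 called 4 lower). The part of this RNA in the falls of genes shared with that tissue was not tested beyond the fits without E8.5 replicate 3. The *Hox* genes summed to 73.4 and 360 CPM at E8.5, 68.9 and 26.7 CPM at E9.5 and 42.7 CPM in the excluded cells. None of 30 passed, 5 had an unadjusted edgeR p below 0.05, and DESeq2 called 3 lower. Their median log2 fold change of -1.87 varied with the replicates, to -2.41 and -0.21 without E8.5 replicates 2 and 3, and to -5.10 and -1.22 without E9.5 replicates 1 and 2.

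**Figure D5:**
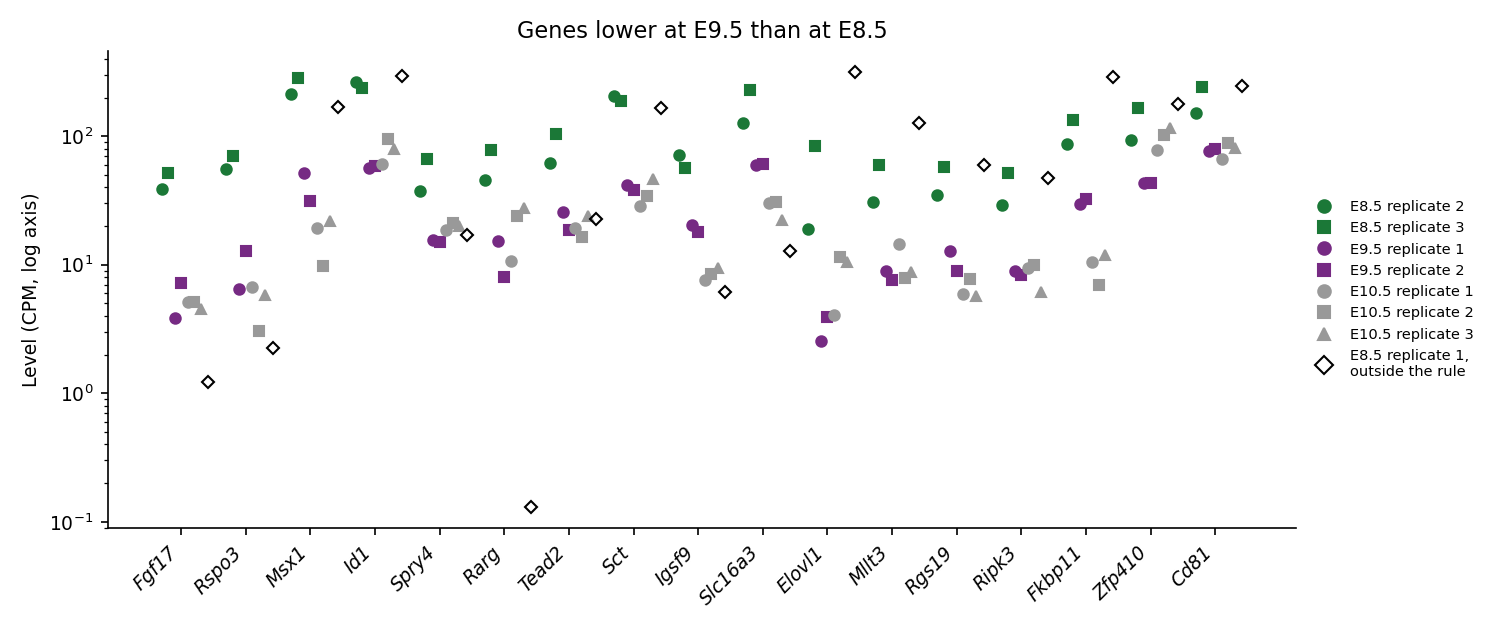
Level (CPM, log axis) of 17 of the 19 genes called lower at E9.5, 1 point per replicate, with the excluded endoderm-like cells of E8.5 replicate 1 as open diamonds. In every gene both purple points (E9.5) lie below both green points (E8.5). The diamond is under the E9.5 points for *Fgf17* and *Rspo3* and above the E8.5 points for *Elovl1*, *Fkbp11* and *Id1*.

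The levels at E10.5 mostly stayed on the side reached at E9.5. All 82 risen genes were above both E8.5 replicates in all 3 E10.5 replicates, and in 75 of them the E10.5 mean was at or above that of E9.5. Of the 19 fallen genes, 18 were below both E8.5 replicates in all 3 E10.5 replicates, *Zfp410* being the exception (77.5, 102 and 116 CPM). These are descriptions of the replicates that also entered the model. The calls were selected on their E8.5 levels, so part of this persistence is built in. The same shares over all tested genes were not counted.

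Of *Elf3*, *Rbm47*, *Irf1*, *Porcn* and *Slpi*, which the study discussed for PGC specification, none passed. *Porcn*, which acylates Wnt ligands, was at 94.5 and 62.7 CPM and then at 129 and 136 CPM (edgeR adjusted p = 0.141). *Slpi*, a protease inhibitor, was at 199 and 142 CPM and then at 119 and 128 CPM. *Irf1* was at 118 and 109 CPM and then at 90 and 104 CPM, and *Rbm47* at 83.4 and 84.9 CPM and then at 74 and 81.7 CPM.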

How the data were processed

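Single cells were profiled by STRT-seq, a modified SMART-seq2 protocol with UMIs. The deposited table holds whole-number UMI counts per gene and cell, made by the authors with, per the submitters' processing notes, CASAVA 1.8, UMI-tools, STAR and featureCounts (Subread) on mm10. Columns of 696 cells (E8.5 to E10.5) were read, and the cell sums equalled the deposited transcript numbers. No other column was used (12336 cells). GEO's labels gave no group for a library, so time-point, genotype and replicate were read from the deposited cell names. Doublets were not called, because cells had been picked singly by mouth pipette, and 95 barcodes recurred between libraries because every library used the same barcode set.

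UMIs were summed per replicate with at least 10 cells. Genes passing filterByExpr were tested by edgeR 4.0.16 (TMM, robust quasi-likelihood fit, R 4.3.3) over E8.5, E9.5 and E10.5, with Benjamini-Hochberg adjustment at 0.05, and the contrast was E9.5 minus E8.5. CPM values are UMIs scaled to a total of 1000000, without TMM factors. DESeq2 and limma served as alternatives. The fit was tested on simulated data. It recovered 36% of 2-fold, 78% of 4-fold, 88% of 8-fold and 94% of 16-fold changes in those data. A gene that did not pass may therefore still have changed 2-fold. Of the calls made on the simulated data, 5.13% were false. Whether the simulation matched the uneven real replicates was not tested, and the real counts varied widely when a replicate was left out. The value of 5.13% is therefore not the false share of the genes called here. Gene positions are from GENCODE M21. A cell of 50000 UMIs or more was thinned to that number, which left out 3 and 0 cells at E8.5 and 3 and 2 at E9.5.

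Named genes were all members of 5 lists (PGC identity, pluripotency, homing, DNA methylation, sex readout) that passed or reached 50 CPM, the 4 largest calls of each other list, the 12 largest rises and falls whose time-points did not overlap and whose log2 CPM averaged 5 or more, and 14 genes of the study; some of these are given only as ranges, and 1 is not reported here. The cells, members and lists were chosen with earlier results of these data known. Alternatives varied the filter, scaling, tool, cells, time-points and replicates.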

Additional observations from a re-analysis of the deposited data

Results flagged for a closer look

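The 48 cells of E8.5 replicate 1 did not enter the main comparison, because all of them failed the *Apoa1* limit. Their summed *Apoa1* level was 1711 CPM, against 44.8 and 432 CPM in the kept E8.5 replicates and 5.72 and 1.86 CPM at E9.5. The limit itself fixed the direction of that gap. *Ttr*, which the limit did not use, was at 1549 CPM in these cells and at 39.4 and 376 CPM in the kept E8.5 replicates. They had a median of 453632 UMIs and 9079 genes per cell.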

How the results depend on the processing

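The counts of called genes (82 higher, 19 lower) varied with the fit, and the cause was not tested except where fewer or more genes or replicates entered. They were 296 and 202 with DESeq2 (59.4% higher, against 81.2% in edgeR), 19 and 13 without E10.5, 314 and 259 without the low-count filter (54.8% higher), 26 and 7 with means of CPM over cells (limma), and 6 and 1 with no *Apoa1* limit, which let the endoderm cells in. With *Apoa1* below 100 CPM or at least 20 cells per replicate, both of which removed E8.5 replicate 3, they were 94 and 8, and 97 and 7. Among alternatives chosen after seeing the data, cells with at least 50 CPM of Y-linked RNA gave 220 and 149 (59.6% higher), the libraries of 1 number series (E8.5 replicate 2, E9.5 replicates 1 and 2, E10.5 replicate 2) gave 316 and 206 (60.5% higher), cells with *Dppa3* of at least 200 and *Pou5f1* of at least 100 CPM gave 91 and 21, and totals without scaling factors gave 55 and 16, with the median of all genes at -0.11 in place of 0.01.

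Leaving out 1 replicate gave 31 to 622 higher and 3 to 255 lower genes. The counts were 622 and 255 without E8.5 replicate 2, 97 and 7 without E8.5 replicate 3, 45 and 4 without E9.5 replicate 1, 31 and 3 without E9.5 replicate 2, and 41 and 7 without E10.5 replicate 2. Without E10.5 replicates 1 or 3 they were within 1.5 times the counts above. Replicate numbers paired E8.5 with E9.5 in replicate 2 alone, whose deviations from the time-point means correlated at 0.06 over genes, and a replicate block gave 95 and 28 calls.

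Over 24 alternatives, 99 of 101 called genes kept their direction wherever they were tested (*Mreg* and *Tfcp2l1* did not), and *Dppa4*, *Rhox6*, *Ldhb* and *Id1* were called in all of them. *Tfcp2l1* turned to -0.25 with no *Apoa1* limit. The 24 alternatives are not independent checks. Keeping every replicate with a cell repeated the main fit, and requiring at least 20 cells per replicate was the same as leaving out E8.5 replicate 3. Of 49 named genes that did not pass, 22 turned sign in an alternative and 12 were called in one (*Dppa2*, *Dppa3*, *Esrrb*, *Etv4*, *Ifitm3*, *Nanog*, *Podxl*, *Porcn*, *Prdm14*, *Sox2*, *T* and *Utf1*). The log2 fold change of *Nanog* ranged from 0.63 to 1.73. At a depth of 8288325 UMIs in the shallower E8.5 replicate, genes at low level were among the calls: of the 82 rises, 33 reached 50 CPM in an E8.5 or E9.5 replicate.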
